A study of Homo sapiens with 6 samples.

Results

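Complexes III and IV of the respiratory chain and the ATP synthase were examined through 45 genes of the 18905 tested in a pooled CRISPRi screen of opioid receptor down-regulation. They were chosen by name alone: UQCR for complex III (9 genes), COX4 to COX8 for complex IV (17 genes) and ATP5 for the ATP synthase (19 genes). The screened line was a clone of HEK293-FLP, a human embryonic kidney line. It expressed dCas9-KRAB, a catalytically dead Cas9 joined to a transcriptional repressor, and DOR-MRS(WT)-APEX2, a delta opioid receptor that ends in the recycling sequence of the mu receptor and carries the peroxidase APEX2. Each of 3 sgRNA sublibraries (H17, H23 and H456) was transduced at a multiplicity of 0.2 and selected with puromycin at 0.75 μg/ml. After 8 days of knockdown by the labels, the cells were stimulated with 10 μM DADLE, an opioid peptide, for 90 min. They were then reacted with hydrogen peroxide and 100 μM AUR, which APEX2 turns fluorescent unless the receptor has reached the lysosome, and sorted. The groups compared were the top and the bottom fluorescence quartile of each sublibrary. All 6 groups carried the same receptor, repressor and agonist treatment, and each was 1 library with no replicate.

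Complex III passes electrons from ubiquinol to cytochrome c, and complex IV passes them on to oxygen. Both pump protons across the inner mitochondrial membrane, and the ATP synthase lets the protons return through a rotating ring of c subunits to make ATP in its F1 head. Most subunits are encoded in the nucleus and made in the cytosol, so CRISPRi can reach them, whereas the catalytic cores of complex IV and cytochrome b come from mitochondrial DNA and were outside the screen. Several complex IV subunits exist as a broadly expressed isoform and as a second isoform restricted to tissues such as heart, muscle, lung or testis.

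For every sgRNA the fraction of reads it took in the top quartile was divided by its fraction in the bottom quartile. The log2 of this ratio, centred so that nontargeting control (NTC) sgRNAs of the same sublibrary had a median of 0, is called its phenotype. A negative phenotype means more reads in the bottom quartile, where less receptor signal remained. The value of a gene is the mean over its sgRNAs at 1 transcription start site, and every ± below is the SD over those sgRNAs, which share a target and are not replicates. An sgRNA listed under both ATP5J2 and the readthrough gene ATP5J2-PTCD1 was counted for each. The 45 genes were measured by 226 sgRNAs, with 5 sgRNAs for 44 genes and 6 for ATP5A1. These sgRNAs had a median of 891 reads in the top quartile and 1088 reads in the bottom quartile, so that counting alone gave a median SD of 0.066 on the log2 scale. Counting error does not cover PCR or cell sampling, since there were no molecular identifiers. The libraries held 23426498 to 50486627 reads, and the top and bottom quartile of each were taken from the sample titles, on which every sign below rests. Knockdown itself was not measured in these data, so a phenotype near 0 can come from an sgRNA that left its target in place.

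None of the 45 genes passed an adjusted p of 0.05 in either direction when their sgRNAs were ranked against the NTC sgRNAs (exact Mann-Whitney U test, two-sided, Benjamini-Hochberg over all genes). Of all genes tested, 0.365% passed with a negative and 0.0899% with a positive phenotype. The lowest adjusted p among the 45 was 0.233, for ATP5A1. At an unadjusted p of 0.05, 3 of the 45 genes were negative and 2 were positive, where 4.05% and 4.09% of all genes were. These shares differed between sublibraries. In H17, 132 of 5952 genes were negative and 325 positive at that p. The counts were 313 and 206 of 6020 genes in H23, and 321 and 242 of 6933 in H456. Of the members, 2 negative and 1 positive were in H17, 1 positive was in H23 and 1 negative was in H456. The hit rule of the methods sets effect and P against pseudogenes made of NTC sgRNAs. Rerun here, it took none of the 45, against 0.952% of all genes with a negative and 0.259% with a positive phenotype. The rerun called 180 negative and 49 positive genes over the screen, which is not the paper's own list of hits. The test sets the top against the bottom library of a sublibrary, not independent cultures.

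The median phenotype of the 45 genes was −0.011, against 0.0013 for all genes. They divided into 25 negative (55.6%) and 20 positive genes. Of all 18905 genes, 9380 (49.6%) were negative and 9525 were positive. Complex III lay at the middle of the screen with a median of −0.013 over 9 genes. Complex IV had a median of −0.046, and 12 of its 17 genes were negative. The ATP synthase genes had a median of 0.10, and 11 of 19 were positive. The first quartile and the third quartile over all genes were −0.097 and 0.094, so the median of the ATP synthase genes lay just above the upper one. These medians are descriptions of genes that share libraries and were given no test.

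**Figure D1:**
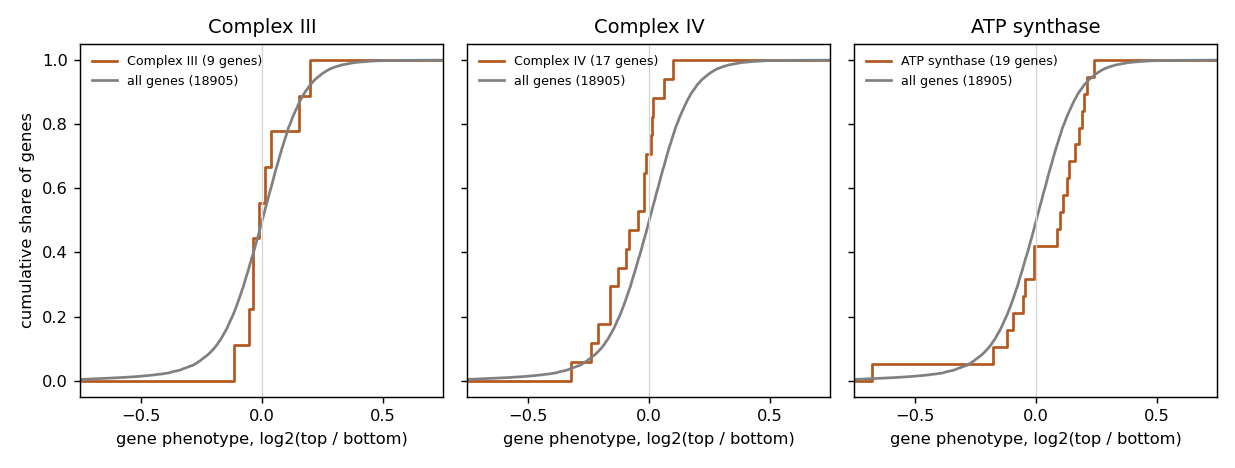
Cumulative share of genes (vertical axis) by gene phenotype in log2 units (horizontal axis) for complex III, complex IV and ATP synthase genes, each drawn with the same curve of all 18905 genes in grey. Complex III crosses the grey curve near 0, complex IV lies mostly to its left with a median of −0.046, and the ATP synthase lies mostly to its right with a median of 0.10, with ATP5A1 alone at −0.68; the far tails of the grey curve run past the axis.

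Complex III was represented by 1 catalytic subunit, 2 core proteins, 5 accessory subunits and 1 paralog. UQCRFS1, the Rieske iron-sulfur protein that takes electrons from ubiquinol, averaged −0.038 ± 0.37. Its 5 sgRNAs ran between −0.44 and 0.47, so its mean near 0 came from sgRNAs that disagreed in sign. The core proteins UQCRC1 and UQCRC2, which resemble processing peptidases and face the matrix, averaged 0.037 ± 0.13 and 0.012 ± 0.33. UQCRC1 had a second start site, at which another 5 sgRNAs averaged −0.030 ± 0.20. For both core proteins the mean was smaller than the spread between sgRNAs.

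UQCRH, the acidic hinge protein that sits beside cytochrome c1, had the highest value of complex III at 0.20 ± 0.23 (unadjusted p = 0.088, adjusted p = 0.692, exact Mann-Whitney U test). Its 5 sgRNAs had 984, 1330, 1869, 643 and 576 reads in the top quartile of H23, against 859, 1096, 1359, 445 and 337 reads in the bottom quartile. The corresponding phenotypes were −0.052, 0.031, 0.21, 0.28 and 0.53, and the last lay at the 97.7th percentile of the NTC sgRNAs. UQCRHL, an intronless gene that resembles UQCRH, averaged −0.036 ± 0.24 in H456. UQCR11 averaged 0.15 ± 0.19, with 4 of 5 sgRNAs positive. UQCRB, which lies close to the quinone site, had the lowest value at −0.11 ± 0.19 with 4 of 5 sgRNAs negative, and UQCR10 and UQCRQ, small membrane subunits, averaged −0.055 ± 0.28 and −0.013 ± 0.21. No complex III gene passed an unadjusted p of 0.05.

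Of the 17 complex IV genes, 2 were negative with an unadjusted p under 0.05, where 4.05% of all genes were. Both are tissue isoforms, and neither passed the adjusted threshold. Without the strongest sgRNA the unadjusted p was 0.0668 for COX7A1 and 0.0307 for COX6B2 (exact Mann-Whitney U test). COX7A1, the heart and muscle isoform of subunit VIIa, averaged −0.32 ± 0.19 (unadjusted p = 0.0179, adjusted p = 0.462, exact Mann-Whitney U test). Its 5 sgRNAs had 552, 184, 415, 467 and 828 reads in the top quartile of H17, against 1053, 293, 637, 667 and 1130 reads in the bottom quartile. All 5 were more abundant in the bottom quartile by share, with phenotypes of −0.62, −0.36, −0.30, −0.20 and −0.13. COX7A2, the broadly expressed isoform of the same subunit, averaged −0.011 ± 0.14 in H456. COX7A2L, a relative that helps to join complexes III and IV, averaged 0.0095 ± 0.14.

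COX6B2, the testis isoform of subunit VIb, averaged −0.24 ± 0.10 (unadjusted p = 0.00827, adjusted p = 0.356, exact Mann-Whitney U test). Its 5 sgRNAs had 680, 574, 655, 591 and 293 reads in the top quartile of H456, against 1457, 1222, 1338, 1153 and 528 reads in the bottom quartile. The phenotypes were −0.33, −0.32, −0.26, −0.20 and −0.082, the narrowest spread among the 5 genes past an unadjusted p of 0.05. COX6B1, the broad isoform on the outer face of the enzyme, averaged 0.064 ± 0.20 in H23, with 3 of 5 sgRNAs negative. The isoforms of VIIa and of VIb were read in different sublibraries, so each pair is given side by side with no comparison.

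The other tissue isoforms lay nearer to 0. COX6A2 of heart and muscle averaged −0.022 ± 0.34, and its broad partner COX6A1 averaged −0.094 ± 0.23. COX4I2, known from lung, averaged 0.015 ± 0.16, and COX4I1, the largest nuclear-encoded subunit and the broad isoform, averaged −0.16 ± 0.16 with 4 of 5 sgRNAs negative. COX7B2 and COX8C, both known from testis, averaged −0.046 ± 0.49 and −0.019 ± 0.11, and their broad partners COX7B and COX8A averaged 0.10 ± 0.097 and −0.13 ± 0.31. The sgRNAs of COX7B2 ran between −0.78 and 0.47, and the lowest had 560 reads in the top quartile and 1632 reads in the bottom quartile. Over the 6 tissue isoforms the median was −0.034, and over the 6 broad isoforms it was −0.052.

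The 4 subunits without isoforms had a median of −0.12. COX6C, a small membrane subunit, averaged −0.21 ± 0.20 (unadjusted p = 0.0502, adjusted p = 0.613, exact Mann-Whitney U test). Its sgRNAs had 706, 1043, 1833, 869 and 694 reads in the top quartile of H23, against 793, 1083, 1843, 832 and 543 reads in the bottom quartile. The first 4 were negative, between −0.42 and −0.19, and the last was 0.11. COX5A, a matrix-side subunit, averaged −0.16 ± 0.29, and COX5B, which binds zinc, averaged 0.017 ± 0.14. COX7C averaged −0.082 ± 0.52, where 1 sgRNA at −0.97 stood against 3 positive ones.

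**Figure D2:**
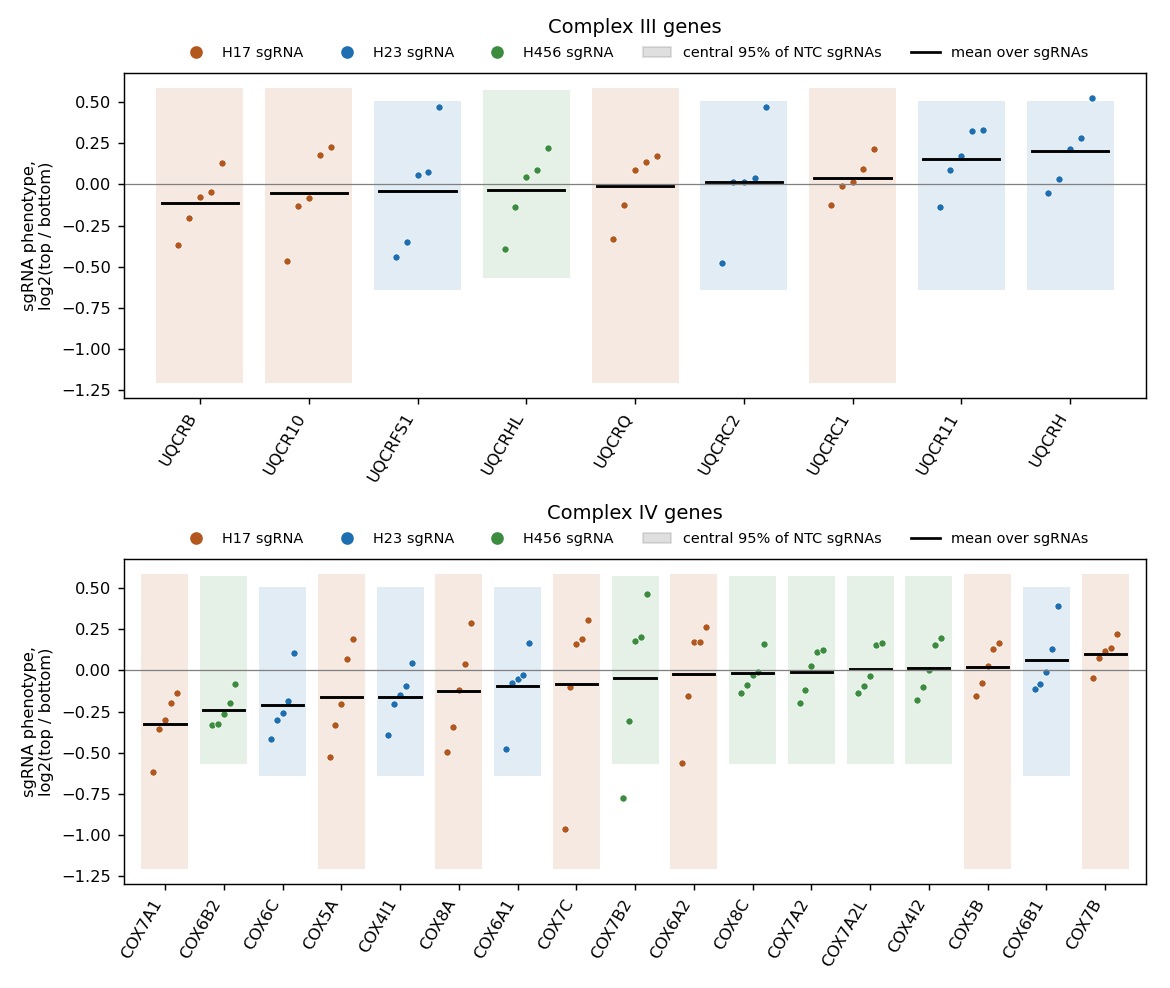
Phenotype of each sgRNA in log2 units (vertical axis) for the complex III genes (upper panel) and complex IV genes (lower panel), ordered by gene mean; dots are sgRNAs coloured by sublibrary, black bars are means over sgRNAs and shaded boxes span the central 95% of the NTC sgRNAs of that sublibrary. Of these sgRNAs, those of UQCRH at 0.53 and of COX7B2 at −0.78 fall outside their boxes, and all 5 sgRNAs of COX7A1 and of COX6B2 lie below 0.

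The ATP synthase genes comprised 5 subunits of F1, 4 of the peripheral stalk, 3 genes of subunit c, 3 small membrane subunits and 4 genes that carry the name without being established subunits. ATP5A1, the alpha subunit of F1, had the lowest phenotype of all 45 genes at −0.68 ± 0.88 (unadjusted p = 0.00334, adjusted p = 0.233, exact Mann-Whitney U test). The 6 sgRNAs had 155, 32, 1075, 387, 339 and 957 reads in the top quartile of H17, against 1046, 64, 1663, 568, 494 and 1316 reads in the bottom quartile. Their phenotypes were −2.44, −0.69, −0.32, −0.24, −0.23 and −0.15. All 6 were negative, but the mean rested on the first, without which the other 5 averaged −0.32 ± 0.21. With the strongest sgRNA of every gene left out, ATP5A1 had an unadjusted p of 0.0184 (exact Mann-Whitney U test). The adjusted p in that setting was 1.0 for all 45 genes alike. A second set of 5 sgRNAs, listed at another start site of ATP5A1, averaged 0.099 ± 0.20 with 3 of them positive. With both start sites pooled the gene averaged −0.32 (unadjusted p = 0.125 by the same exact test).

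The other F1 subunits had positive values. ATP5B, the catalytic beta subunit, averaged 0.19 ± 0.15 (unadjusted p = 0.04995, adjusted p = 0.613, exact Mann-Whitney U test). Its sgRNAs had 669, 479, 1061, 425 and 449 reads in the top quartile of H17, against 867, 520, 1115, 444 and 447 reads in the bottom quartile, and the first alone was negative at −0.060. ATP5C1, the gamma subunit that turns inside the head, averaged 0.18 ± 0.40. ATP5D and ATP5E, the delta and epsilon subunits at the foot of the central stalk, averaged 0.14 ± 0.25 and 0.21 ± 0.37. The alpha and beta subunits alternate around the same head and were read in the same sublibrary, with means of opposite sign; that difference was not tested.

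The small membrane subunits e, f and g help ATP synthase dimers to bend the inner membrane. Their values were positive in the sublibraries used, but that of f was −0.058 in H456 and −0.0087 in H23 without its strongest sgRNA. ATP5L, subunit g, had the highest phenotype of the 45 genes at 0.24 ± 0.22 (unadjusted p = 0.0356, adjusted p = 0.558, exact Mann-Whitney U test). Its sgRNAs had 1374, 1736, 1518, 1271 and 1443 reads in the top quartile of H23, against 1221, 1316, 1070, 841 and 851 reads in the bottom quartile. The phenotypes were −0.078, 0.15, 0.26, 0.35 and 0.51. ATP5I, subunit e, averaged 0.20 ± 0.17 with all 5 sgRNAs positive, between 0.068 and 0.46 (unadjusted p = 0.0513 by the same exact test). ATP5J2, subunit f, averaged 0.11 ± 0.36. ATP5L2, a paralog of subunit g, averaged −0.043 ± 0.27 in H456.

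Of the peripheral stalk, which holds the head still, ATP5F1 (subunit b), ATP5H (subunit d) and ATP5O (OSCP) averaged 0.10 ± 0.24, 0.16 ± 0.32 and 0.13 ± 0.15, and ATP5J (subunit F6) averaged −0.054 ± 0.26. The 3 genes that encode the same mature subunit c, ATP5G1, ATP5G2 and ATP5G3, averaged −0.12 ± 0.20, −0.095 ± 0.24 and 0.086 ± 0.24. Each can supply the c ring, so the knockdown of a single one leaves the other two genes. ATP5S and ATP5SL, which are named for the enzyme but are no subunits of it, averaged −0.0078 ± 0.31 and −0.0070 ± 0.22. The readthrough gene ATP5J2-PTCD1 averaged −0.18 ± 0.24 in H17. Most of its sgRNAs are also listed under ATP5J2, which was read in H23, so the values of these genes do not come from separate sgRNAs.

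**Figure D3:**
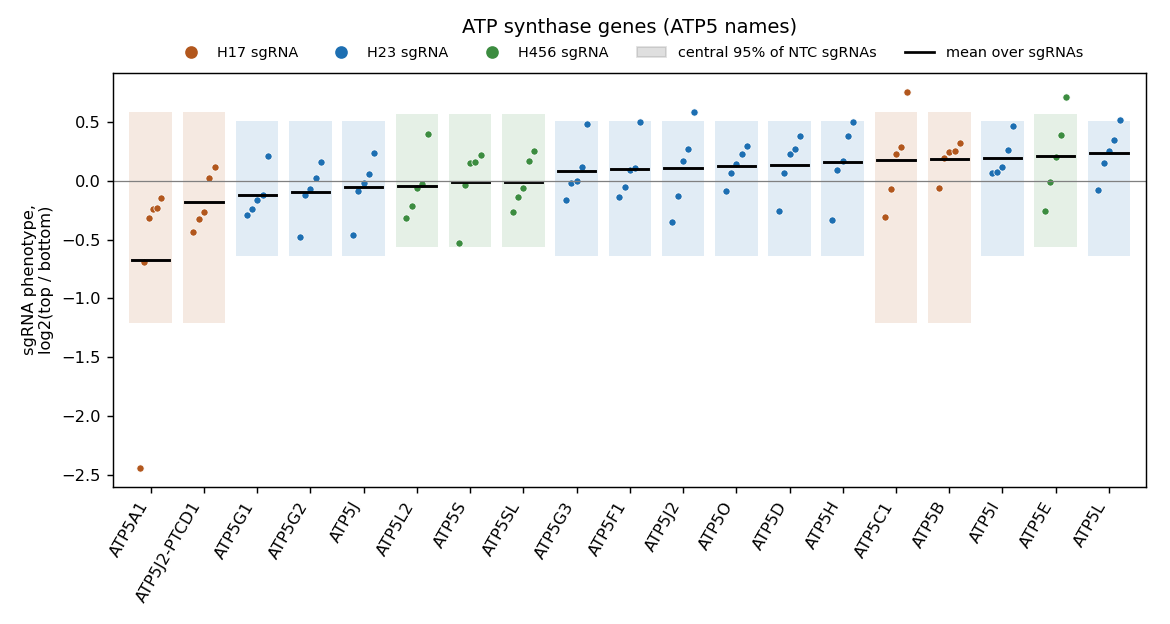
Phenotype of each sgRNA in log2 units (vertical axis) for the 19 genes named ATP5, ordered by gene mean; dots are sgRNAs coloured by sublibrary, black bars are means over sgRNAs and shaded boxes span the central 95% of the NTC sgRNAs of that sublibrary. One ATP5A1 sgRNA at −2.44 lies far below its box, and 1 sgRNA each of ATP5C1, ATP5E, ATP5J2 and ATP5L lies above its box.

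The 15 established ATP synthase subunits had a median of 0.13, and 11 were positive, where 9525 of all 18905 genes were. Of the 15 subunits, 11 were read in H23 with a median of 0.11, against −0.0081 for all genes of H23. Among these 11, 8 were positive, against 2846 of the 6020 genes of H23. In H17, ATP5A1, ATP5B and ATP5C1 had a median of 0.18, against 0.023 for all genes of H17. ATP5E was the single one in H456. Complex IV genes were spread over the sublibraries, with medians of −0.082 in H17 (7 genes), −0.13 in H23 (4 genes) and −0.015 in H456 (6 genes). Complex III genes had medians of −0.034 in H17 and 0.083 in H23, with 4 genes in each, of which 3 were negative in H17 and 3 were positive in H23. Different genes were read in each sublibrary, so gene and sublibrary cannot be told apart in these medians.

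Agreement among the sgRNAs of a member was described by their signs. All sgRNAs had 1 sign in 4 of 45 members (8.89%), against 9.82% of all genes. The 4 were ATP5A1, COX7A1 and COX6B2 on the negative side and ATP5I on the positive side. Of the 226 sgRNAs, 2 (0.885%) lay below the 2.5th percentile of the NTC sgRNAs of their sublibrary, against 2.41% of the sgRNAs of all other genes. A further 5 (2.21%) lay beyond the upper limit of the central 95%, against 2.76%. The NTC sgRNAs spread more in H17 (SD 0.47) than in H23 (0.28) or H456 (0.30), and their central 95% reached down to −1.21 in H17 but to −0.64 in H23 and −0.57 in H456. A negative value of a given size therefore stood out less in H17, where ATP5A1 and COX7A1 were read.

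Abundance of a gene was described as the median over its sgRNAs of their share in both quartiles, on a log2 scale relative to the median NTC sgRNA. No plasmid or unsorted library was used here, so the starting composition of the library and a loss of cells during knockdown cannot be told apart. The median over the 45 genes was 0.070, against 0.022 over all genes, and 20 of 45 (44.4%) lay below 0, against 48.3% of all genes. UQCRQ (−0.57), ATP5C1 (−0.57) and ATP5G3 (−0.53) were lowest, and COX7A2L (0.95) and UQCR11 (0.90) were highest. Of the 5 F1 genes, 4 lay below 0, and none of the 4 peripheral stalk genes did. The range of the members, −0.57 to 0.95, was well inside that of all genes, −3.40 to 2.43.

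Some sgRNAs of members were listed under a neighbouring gene as well and had been read in several sublibraries, which are separate transductions and sorts. One sgRNA listed under ATP5J and under GABPA, an ETS factor that regulates mitochondrial genes, had a phenotype of 0.058 in H23 and −0.46 in H456. It had 2332 reads in the top quartile and 1887 in the bottom quartile of H23, and 805 in the top quartile and 1888 in the bottom quartile of H456. A second sgRNA of the same pair had −0.015 in H23 and −0.062 in H456. One sgRNA shared by ATP5J2 and PTCD1 differed more, with 749 reads in the top quartile and 420 in the bottom quartile of H23 (0.59) and 210 in the top quartile and 533 in the bottom quartile of H456 (−0.58). An sgRNA listed under ATP5J2, ATP5J2-PTCD1 and PTCD1 gave 0.029 in H17, 0.27 in H23 and 0.31 in H456, and another gave −0.27, −0.35 and 0.17. Over all sgRNAs read in H23 and H456 (236 sgRNAs), the median difference was 0.23 in size. As a gene, ATP5J2 averaged 0.11 ± 0.36 in H23 and −0.058 ± 0.36 in H456.

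All 45 names were found in the RefSeq gene table of GRCh38.p14, 26 as the current symbol and 19 as an older synonym (ATP5A1 is now ATP5F1A, and ATP5L is ATP5MG). A promoter window, 250 bases before to 50 bases after the start, was given for 33 of them. Short motifs of 3 factors that are known for genes of oxidative phosphorylation were searched on both strands. The NRF1 core GCGCANGC was in 14 of 33 windows (42.4%), against 12.5% of 27305 windows of all genes and 17.2% of the 14969 windows of screened genes. The ETS core CCGGAAG, which GABPA reads, was in 12 of 33 (36.4%), against 10.7% of all and 14.5% of screened genes. The YY1 core AAGATGGC was in 4 of 33 (12.1%), against 3.03% of all and 4.06% of screened genes; its first 3 letters can overlap the last 3 of the ETS core. A match is a string of letters and no proof of binding. The windows with none of the 3 were those of ATP5A1, ATP5E, ATP5G1, ATP5SL, COX5A, COX6A2, COX7A2, COX7A2L, COX7B, COX7B2, COX7C and UQCRC2. That of ATP5L was 1 of the 12 with the ETS core.

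CRISPRi acts over a promoter region, so start sites near those of the members were listed by distance, a list drawn up after results were known. Within 1000 bases, 10 members had another RefSeq start site, each on the opposite strand, and 9 of these neighbours were in the screen. The 3 windows printed here were picked from these as examples after their values were seen: ATP5A1 for the lowest phenotype, UQCRH for the contrast with its neighbour and COX4I1 for sgRNAs close to those of its neighbour. Capitals run from the start of the neighbour to the start of the member, in the strand of the member, from RefSeq GRCh38.p14.
ATP5A1 (HAUS1, chr18:46104178-46104477, minus strand): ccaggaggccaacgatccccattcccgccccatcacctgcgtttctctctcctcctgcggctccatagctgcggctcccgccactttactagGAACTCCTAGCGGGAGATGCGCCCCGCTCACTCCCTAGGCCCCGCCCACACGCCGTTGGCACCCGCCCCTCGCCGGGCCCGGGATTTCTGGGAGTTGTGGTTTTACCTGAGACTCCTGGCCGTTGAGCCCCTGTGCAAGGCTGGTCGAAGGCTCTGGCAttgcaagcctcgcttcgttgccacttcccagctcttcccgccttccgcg
UQCRH (LRRC41, chr1:46303448-46303747, plus strand): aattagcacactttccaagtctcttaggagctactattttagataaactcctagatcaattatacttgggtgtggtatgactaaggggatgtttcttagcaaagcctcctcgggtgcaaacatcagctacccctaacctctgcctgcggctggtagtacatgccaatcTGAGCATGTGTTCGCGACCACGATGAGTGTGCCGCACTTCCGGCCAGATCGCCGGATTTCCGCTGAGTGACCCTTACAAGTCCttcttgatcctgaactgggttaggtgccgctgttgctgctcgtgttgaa
COX4I1 (EMC8, chr16:85799445-85799744, plus strand): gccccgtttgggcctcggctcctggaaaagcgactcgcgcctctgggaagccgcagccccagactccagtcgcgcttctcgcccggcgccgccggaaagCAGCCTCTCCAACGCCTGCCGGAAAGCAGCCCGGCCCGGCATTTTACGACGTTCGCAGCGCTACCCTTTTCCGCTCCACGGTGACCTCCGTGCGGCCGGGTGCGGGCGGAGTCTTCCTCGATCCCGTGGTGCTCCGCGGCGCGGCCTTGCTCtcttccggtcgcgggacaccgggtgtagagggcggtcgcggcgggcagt
The starts lie 158 bases apart for ATP5A1 and HAUS1, 82 for UQCRH and LRRC41, and 151 for COX4I1 and EMC8. The windows of ATP5A1 and COX4I1 are rich in G and C (65.3% and 71.0%), and that of UQCRH is less so (49.7%).

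HAUS1, a subunit of the augmin complex that builds spindle microtubules, averaged −0.34 ± 0.31 in H23, with all 5 sgRNAs negative (unadjusted p = 0.0173, adjusted p = 0.456, exact Mann-Whitney U test). Its sgRNAs had 256, 508, 1407, 1605 and 748 reads in the top quartile, against 361, 628, 1485, 1434 and 634 reads in the bottom quartile. Although the RefSeq starts of ATP5A1 and HAUS1 are 158 bases apart, the positions in the sgRNA names put the 6 sgRNAs behind the value of ATP5A1 at least 14679 bases from any HAUS1 sgRNA, on the side of the ATP5A1 gene body. The 5 sgRNAs at its other start site were at least 6113 bases away. So neither set of ATP5A1 sgRNAs lay near the HAUS1 set, and how far either lowered ATP5A1 was not measured.

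UQCRH and LRRC41, which encodes a leucine-rich repeat protein, were read in the same sublibrary with sgRNAs as near as 459 bases. Their sgRNAs did not overlap in value: the 5 of UQCRH lay between −0.052 and 0.53, and the 4 of LRRC41 between −0.76 and −0.10. The lowest of UQCRH and the highest of LRRC41 had counting SDs of 0.067 and 0.057, so the ranges are not resolved at their edges. How often the sgRNAs of other gene pairs fail to overlap was not counted. UQCRH averaged 0.20 ± 0.23, against −0.43 ± 0.33 for LRRC41 (unadjusted p = 0.0110, adjusted p = 0.386, exact Mann-Whitney U test of LRRC41 against the NTC sgRNAs). COX4I1 and EMC8, a subunit of the ER membrane protein complex, had sgRNAs as near as 226 bases and averaged −0.16 ± 0.16 in H23 and −0.11 ± 0.25 in H456. ATP5F1 and WDR77 were both positive (0.10 and 0.20), as were ATP5I and MYL5 (0.20 and 0.14). ATP5C1 averaged 0.18 and KIN 0.026 ± 0.14, with 3 of the 5 KIN sgRNAs negative. ATP5J and GABPA, which share sgRNAs, were both negative (−0.054 and −0.12). UQCRQ and GDF9 had opposite signs (−0.013 and 0.12). UQCR10 averaged −0.055. ZMAT5 averaged −0.23 ± 0.23 with 4 of 5 sgRNAs negative (unadjusted p = 0.0365, adjusted p = 0.565, exact Mann-Whitney U test against the NTC sgRNAs). The difference within each pair was not tested.

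**Figure D4:**
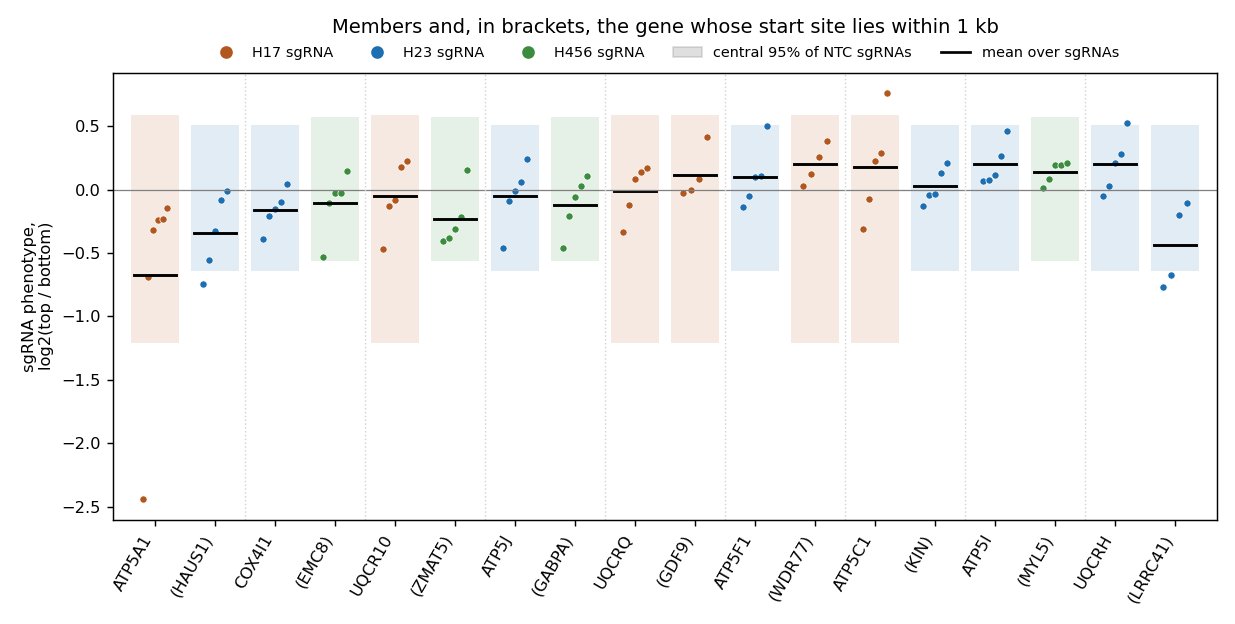
Phenotype of each sgRNA in log2 units (vertical axis) for the 9 members with another screened gene starting within 1000 bases, each followed by that gene in brackets; dots are sgRNAs coloured by sublibrary, black bars are means and shaded boxes span the central 95% of the NTC sgRNAs. The sgRNAs of UQCRH, with 4 of 5 above 0, lie above those of LRRC41, a pair picked after its values were seen. The lowest of UQCRH is at −0.052 and the highest of LRRC41 at −0.10. All drawn sgRNAs of ATP5A1 and HAUS1 lie below 0. The 5 sgRNAs at the other start site of ATP5A1 are not drawn, and 3 of them were positive.

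The partners of the 3 enzymes were read from lists of assembly factors and neighbouring complexes. The lists gave values for 9 partners of complex III, 29 of complex IV and 8 of the ATP synthase, and for 8 complex II and 39 complex I genes. Of these, 1 passed the adjusted threshold. Among all genes, 0.365% passed it with a negative and 0.0899% with a positive phenotype. HCCS, the lyase that attaches heme to cytochrome c and to cytochrome c1 of complex III, averaged −0.47 ± 0.12 (adjusted p = 0.0164, exact Mann-Whitney U test). Its 5 sgRNAs had 588, 1165, 1004, 1053 and 995 reads in the top quartile of H23, against 759, 1416, 1189, 1176 and 1037 reads in the bottom quartile. The phenotypes were −0.62, −0.53, −0.49, −0.41 and −0.31, and the highest of them lay at the 11.9th percentile of the NTC sgRNAs. The other 8 measured genes of the complex III list had no unadjusted p under 0.05, and the list had a median of −0.0047.

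COX16, an assembly factor of complex IV, averaged 0.26 ± 0.16 with all 5 sgRNAs positive (unadjusted p = 0.0100, adjusted p = 0.385, exact Mann-Whitney U test). Its sgRNAs had 1656, 1663, 841, 1023 and 298 reads in the top quartile of H456, against 2646, 2551, 1207, 1403 and 357 reads in the bottom quartile. It was the single gene of 29 measured complex IV assembly factors with an unadjusted p under 0.05. Of all genes, 4.05% had such a p with a negative and 4.09% with a positive phenotype. In the list 20 of the 29 were negative (69.0%), against 49.6% of all genes, and the list median was −0.012. The 8 ATP synthase assembly factors and partners had a median of 0.042 and none passed. The 8 genes of complex II had a median of 0.025 and none passed. Their lowest, SDHB, the iron-sulfur subunit, was named after its value was seen: its mean of −1.21 ± 2.71 came from 1 sgRNA with 0 reads in the top quartile and 55 in the bottom quartile. The 39 complex I genes had a median of −0.012, 23 were negative (59.0%, against 49.6% of all genes), and none had an unadjusted p under 0.05.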

How the data were processed

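sgRNAs were counted in 6 libraries, 1 each of the top and bottom quartile of H17, H23 and H456. The authors amplified them from genomic DNA with 27 PCR cycles, cropped reads to 38 bp and ran ScreenProcessing 0.1. What they deposited are unnormalized counts for 209070 sgRNA rows. No source used here names the genome build of the sgRNA positions, so only distances between them are used. The quartile was taken from the sample titles, although another label field ends in the opposite letter. A check of this direction on a gene outside the members is not reported here. The agonist and knockdown times are those of the labels, from which the methods differ.

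sgRNAs with at least 50 reads in either quartile and at least 10% of their reads in the sublibrary of their gene were kept, which left 97.0% to 98.2% of the reads and 554 to 739 NTC sgRNAs per sublibrary. Shares were taken over these reads. Genes needed 2 sgRNAs, and the start site with the lower P stood for a gene; 3 members had 2 start sites. ATP5J2 was set to H23 by hand. The exact two-sided Mann-Whitney U test was adjusted by Benjamini-Hochberg over all 18905 genes. With 1 library per group, edgeR (4.0.16) served only for TMM factors. The procedure was tested on simulated data. Python 3.11.15, numpy 2.4.6, pandas 2.3.3 and scipy 1.17.1 were used. The members, gene lists and alternatives were chosen with earlier results of these data known. Named were all members, genes that share an sgRNA with a member, and listed partners with a P under 0.05; other named genes are said to be chosen later. Alternatives covered read minimums, added counts, centring, the gene summary, start sites, comparison sgRNAs and call rules.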

Additional observations from a re-analysis of the deposited data

How the results depend on the processing

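Under 14 alternative settings none of the 45 genes reached an adjusted p of 0.05 (lowest 0.144, for ATP5A1 against olfactory receptor sgRNAs). Settings that changed only the summary over sgRNAs, or centred on all analysed sgRNAs, left every P as it was and could not add a call. Leaving out the strongest sgRNA took it from each gene but none from the NTC sgRNAs, so that setting works against a call by design. The sign of 24 genes was kept in every setting. UQCRC1 alone moved by more than its SD over sgRNAs, to −0.091 with olfactory receptor sgRNAs as the comparison set. In that setting its second start site stood for the gene, so other sgRNAs were averaged. That start site averaged −0.030 ± 0.20 in the main setting. Calling by an unadjusted p of 0.05 took 3 negative and 2 positive members in place of 0 and 0. The count of 2 positive members became 1 with a minimum of 1 read, with 1 or 10 added to every count or against olfactory receptor sgRNAs, and 0 without the strongest sgRNA; the P of ATP5B lay at the threshold. The count of 3 negative members became 4 with 1 or 10 added, where COX6C passed too, 2 with start sites pooled, where ATP5A1 did not pass, and 2 without the strongest sgRNA, where COX7A1 did not pass (unadjusted exact p = 0.0668). The median of all members was 0.026 without the strongest sgRNA and 0.017 as a median over sgRNAs, against −0.011. The median of complex III was 0.053 without the strongest sgRNA, 0.042 as a median over sgRNAs and −0.063 against olfactory receptor sgRNAs. That of complex IV was −0.082 against olfactory receptor sgRNAs and −0.13 as a mean of the 3 strongest sgRNAs, and that of the ATP synthase was 0.048 without the strongest sgRNA. Further choices were made after seeing the data. Reading ATP5J2 in H456 left the counts of 3 negative and 2 positive members past an unadjusted p of 0.05 unchanged. It turned ATP5J2 from positive to negative (−0.058), and the median of the ATP synthase genes became 0.086. That lies below the third quartile over all genes, 0.094 in the main setting. With broadly used subunits only, 1 negative member remained past an unadjusted p of 0.05. The median of all members was then 0.015 and that of complex IV was −0.082. The causes were not tested.

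No paired analysis was possible because each quartile of a sublibrary is 1 library, and no library could be left out for the same reason. The depth allows counting SDs of about 0.066 per sgRNA, and the spread between sgRNAs of a gene had a median of 0.23; counting SDs leave out PCR and cell sampling.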
